A study of Mus musculus with 18 samples.

Results

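Genes of the tumour necrosis factor (TNF) pathway were followed in mouse kidney after folic acid. They are TNF itself, 3 members of the TNF receptor family and 6 genes that the transcription factor NF-kappaB is known to switch on. The 10 genes are the ligand gene Tnf, the receptor genes Tnfrsf1a, Tnfrsf1b and Tnfrsf12a, and the NF-kappaB target genes Nfkbia, Nfkbiz, Tnfaip3, Birc3, Relb and Nfkb2. They were taken by name, as the rows of the count tables whose Ensembl identifier maps to these symbols, and 10 of 10 were found among 37991 gene identifiers. The 10 genes were chosen with earlier results of these data known, so counts of them are descriptions. All 10 passed the low-count filter, which left 16824 genes to test. The RNA came from whole kidneys of Balb/c males. There were 18 libraries, 3 of untreated mice and 3 each of mice taken 1, 2, 3, 7 or 14 days after folic acid was given once into the peritoneum at 250 mg/kg, dissolved in sodium bicarbonate. Folic acid at this dose injures the renal tubule. The untreated mice received nothing that the labels record and no group received bicarbonate alone, so folic acid and its vehicle cannot be told apart. The labels give no age, and they do not say that the 3 libraries of a group came from 3 mice, so p-values measure the spread between these libraries.

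In the canonical pathway, TNF binds its receptor TNFR1 and, through adaptor proteins and ubiquitin ligases, activates a kinase complex that marks the inhibitor IkappaB-alpha for destruction, which frees NF-kappaB dimers to enter the nucleus. Several genes that NF-kappaB switches on encode brakes on the same pathway, among them IkappaB-alpha itself and the ubiquitin-editing enzyme A20, so that induction of these genes is widely read as a trace of pathway activity. A slower, non-canonical arm runs from receptors such as the lymphotoxin beta receptor and Fn14 through the kinase NIK to dimers of RelB and p52. In the kidney, tubule cells, endothelium and infiltrating leukocytes can all use these pathways after injury.

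Libraries held between 8.68 M and 54.6 M reads in genes (M, mega). The 37 mitochondrial genes accounted for 59.0 to 75.6% of these, which left 2.83 M to 17.2 M reads for all other genes. Day 2 replicate 2 was the shallowest library, and the correlation of log2 levels between replicates was lowest within day 2 (0.857). Kidney markers were present in every group. The summed level of 12 proximal tubule markers was 8015 to 8791 CPM in untreated kidney and 1685 to 1946 CPM at day 1, and that of 8 tubular injury markers was 134 to 182 CPM in untreated kidney and 14914 to 19215 CPM at day 1. CPM are counts per M of the library total, after that total was scaled by a TMM factor. In whole tissue, fewer cells of a type and less RNA per cell cannot be told apart.

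Between day 1 and day 7 most of the 10 genes stood above untreated kidney, and none was called lower (edgeR quasi-likelihood test, Benjamini-Hochberg adjusted over all genes tested, called at an adjusted p under 0.05). At day 1, 6 of the 10 genes rose, while 5.09% of all genes tested rose. At day 2, 6 of 10 rose beside 7.19% of all genes, at day 3, 8 of 10 beside 4.18%, and at day 7, 5 of 10 beside 3.87%. At day 14 Nfkbiz was the 1 gene still called, beside 1.24% of all genes. The 0 genes called lower stand beside 5.56, 5.98, 3.43, 3.85 and 0.309% of all genes at days 1, 2, 3, 7 and 14. All 3 libraries of the treated group lay above all 3 untreated ones for 8, 7, 9, 7 and 3 of the 10 genes at these days, beside 16.1, 13.2, 14.8, 14.9 and 11.7% of all genes, and at day 14 all lay below for 1 gene, beside 10.2%. The median log2 fold change of the 10 genes was 2.33, 1.67, 2.51, 2.35 and 1.64 at days 1, 2, 3, 7 and 14, where the median of all genes tested lay between 0.03 and 0.07. The 5 comparisons share the 3 untreated libraries, so their counts are not independent of each other, and leaving out untreated replicate 2 alone lowered the count to 3 at day 2, 4 at day 3 and 3 at day 7.

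**Figure D1:**
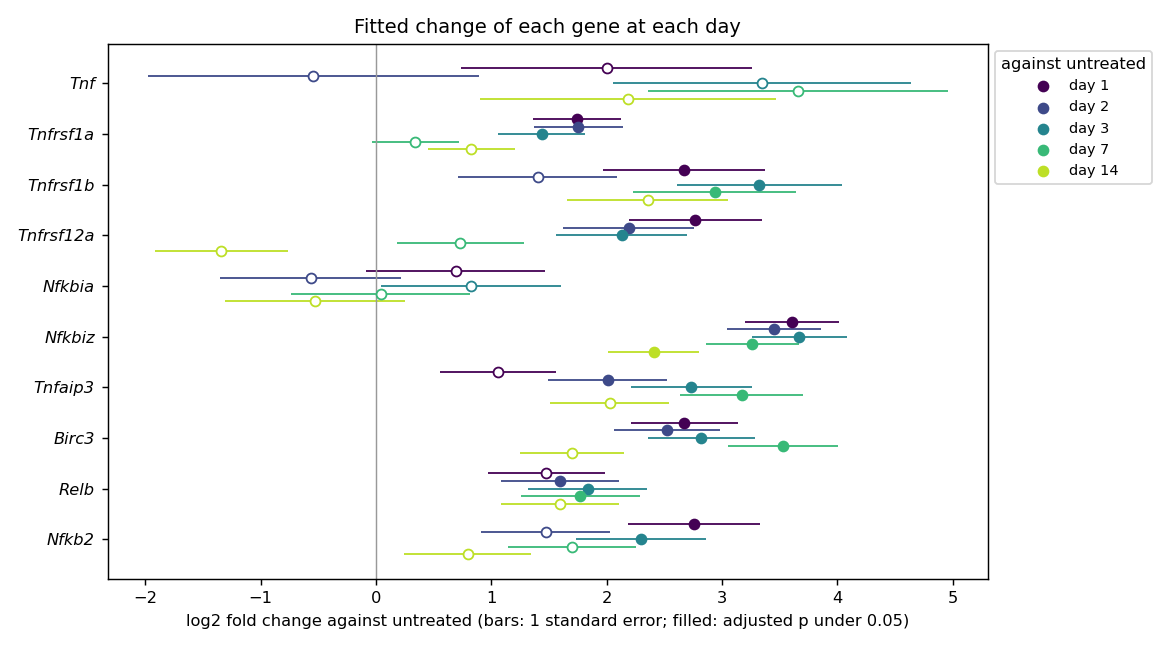
Fitted log2 fold change against untreated kidney (x axis) for each of the 10 genes (y axis) at days 1, 2, 3, 7 and 14, with bars of 1 standard error; filled points have an adjusted p under 0.05 and open points do not. Nfkbiz is filled at every day, Tnf and Nfkbia at none, and the points of Tnfrsf1a and Tnfrsf12a for days 7 and 14 lie to the left of those for days 1 to 3.

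Across the 6 groups 7 of the 10 genes differed, beside 19.7% of all genes tested (F test of the 5 group terms). They were Nfkbiz (adjusted p = 9.77e-05), Tnfrsf12a (adjusted p = 0.000544), Birc3 (adjusted p = 0.000815), Tnfaip3 (adjusted p = 0.00272), Tnfrsf1a (adjusted p = 0.00708), Nfkb2 (adjusted p = 0.0128) and Tnfrsf1b (adjusted p = 0.0231). Relb (adjusted p = 0.119), Tnf (adjusted p = 0.0900) and Nfkbia (adjusted p = 0.522) did not pass. Tnfrsf1b did not pass without untreated replicate 2 (adjusted p = 0.0808) or untreated replicate 3 (adjusted p = 0.0547), nor with the replicate number as a block (adjusted p = 0.0503).

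Tnf, which encodes the ligand, had few reads in every group, from 0 to 47 in a library. The untreated libraries held 0, 4 and 2 Tnf reads, which is 0, 0.0951 and 0.125 CPM, and the day 2 libraries held 5, 0 and 0 reads. At day 3 there were 23, 24 and 28 reads (0.763, 0.909 and 0.735 CPM) and at day 7 there were 20, 47 and 19 reads (0.658, 1.68 and 0.659 CPM). All 6 libraries of days 3 and 7 lay above all 3 untreated libraries, whereas day 1 (4, 4 and 33 reads) and day 14 (20, 0 and 5 reads) overlapped with them.

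The log2 fold change of Tnf was 3.35 ± 1.29 (standard error) at day 3 (adjusted p = 0.124) and 3.66 ± 1.30 at day 7 (adjusted p = 0.0944), so neither was called. At days 1, 2 and 14 it was 2.00 ± 1.27 (adjusted p = 0.366), -0.54 ± 1.44 (adjusted p = 0.849) and 2.18 ± 1.28 (adjusted p = 0.443). The 0 reads of day 2 replicate 2, the shallowest library, allow a level of up to 0.507 CPM (3 counts of its scaled total), while those of day 2 replicate 3 allow up to 0.115 CPM. The day 3 levels lie above both limits, which cover counting error alone.

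The summed level of 14 macrophage and monocyte markers, the genes of a cell type that makes TNF, was 28.4 to 58.6 CPM in untreated kidney, 62.6 to 104 CPM at day 1, 56.6 to 75.5 CPM at day 2, 153 to 216 CPM at day 3, 259 to 454 CPM at day 7 and 204 to 409 CPM at day 14. At each of days 1 and 2, 2 of the 13 markers tested rose (Cd14 and Itgam) and 1 fell (Csf1r). At days 3, 7 and 14, 7, 11 and 8 rose and 0 fell. The shares of all genes tested that rose at days 1, 2, 3, 7 and 14 were 5.09, 7.19, 4.18, 3.87 and 1.24%. At days 1 and 2, 5.56 and 5.98% of all genes fell. Day 7 replicate 2 held the highest value of both Tnf and the macrophage sum. Day 14 replicate 3, with the next highest macrophage sum, held 5 Tnf reads, and all 3 day 14 sums lay above the untreated ones while Tnf overlapped with untreated kidney. The part of these markers in the level of Tnf, or of any of the other 9 genes, was not tested. Among other leukocytes, markers of T and NK cells summed to 1.54 to 16.5 CPM and those of B cells to 0.676 to 7.77 CPM over the 18 libraries. Neutrophil markers summed to 5.63 to 13.9 CPM in 17 libraries and to 60.2 CPM in day 2 replicate 2.

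**Figure D2:**
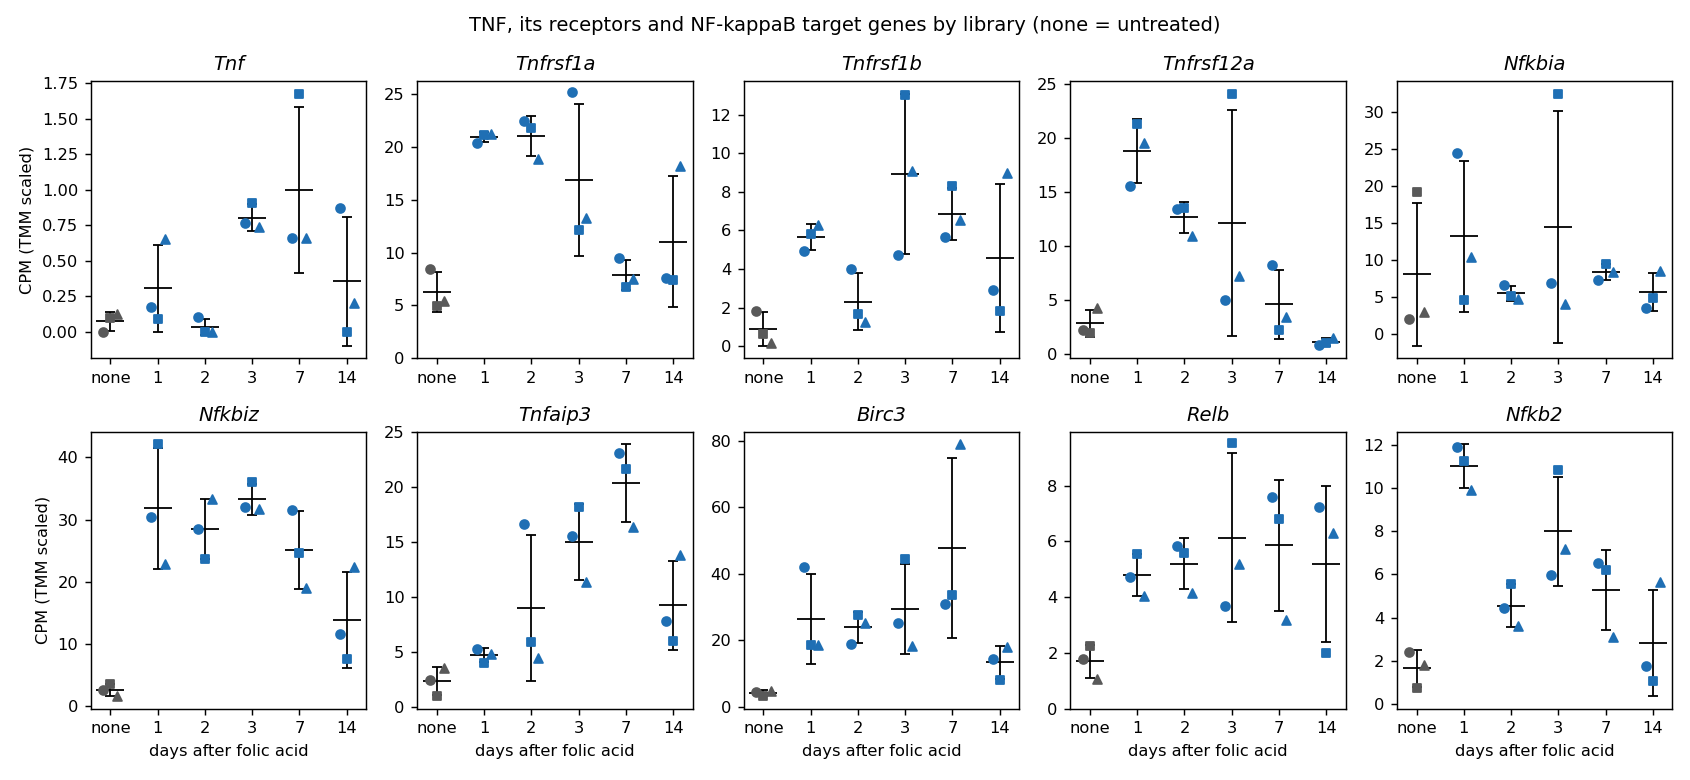
CPM of each gene (y axis, its own scale in each panel) in the untreated kidney and at days 1, 2, 3, 7 and 14 (x axis). Circles, squares and triangles are replicates 1, 2 and 3, and the bars show the mean and 1 standard deviation of 3 libraries. Nfkbiz is high from day 1 on, Tnfrsf12a and Nfkb2 have their highest mean at day 1, and Tnfaip3 and Birc3 at day 7.

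Of the 3 receptor genes, Tnfrsf1a and Tnfrsf12a were called at days 1, 2 and 3 and Tnfrsf1b at days 1, 3 and 7. Tnfrsf1a encodes TNFR1, the widely expressed receptor with a death domain. Its levels were 8.43, 4.95 and 5.39 CPM in untreated kidney, 20.4, 21.1 and 21.3 CPM at day 1 and 22.5, 21.8 and 18.9 CPM at day 2. The 6 libraries of days 1 and 2 lay within 18.9 to 22.5 CPM, all above the untreated ones. Tnfrsf1a rose 3.35-fold at day 1 (log2 1.74 ± 0.38, adjusted p = 0.00567) and 3.37-fold at day 2 (log2 1.75 ± 0.38, adjusted p = 0.00525).

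At day 3 the Tnfrsf1a libraries spread to 25.2, 12.1 and 13.3 CPM (log2 1.43 ± 0.38, adjusted p = 0.0268). That call was lost without day 3 replicate 1, the highest of them (log2 1.03, adjusted p = 0.146), and without untreated replicate 2 or 3. At day 7 Tnfrsf1a was back at 9.47, 6.70 and 7.53 CPM, which overlaps with untreated kidney (log2 0.34 ± 0.38, adjusted p = 0.674). Between days 1 and 7 the gene fell by 1.40 on the log2 scale (adjusted p = 0.0383), and between days 2 and 7 by 1.41 (adjusted p = 0.0376). At day 14 replicates 1 and 2 were at 7.55 and 7.42 CPM and replicate 3 at 18.2 CPM (log2 0.82 ± 0.38, adjusted p = 0.294).

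Tnfrsf1b encodes TNFR2, a receptor without a death domain that is prominent on leukocytes and endothelium. It was at 1.85, 0.642 and 0.188 CPM in untreated kidney, where the lowest library rests on 3 reads, and at 4.94, 5.83 and 6.26 CPM at day 1. It then stood at 3.98, 1.69 and 1.23 CPM at day 2, 4.74, 13.03 and 9.05 CPM at day 3 and 5.66, 8.30 and 6.52 CPM at day 7. Days 1, 3 and 7 lay wholly above untreated kidney. Day 2 overlapped with it, through untreated replicate 1 alone, and its value of 1.69 CPM rests on 10 reads. The difference between days 1 and 2 was not called (edgeR, log2 -1.27 ± 0.66, adjusted p = 0.420). Markers of endothelium, one of the cell types that carry TNFR2, summed to 88.2 to 157 CPM in untreated kidney, 49.1 to 57.0 CPM at day 1, 21.3 to 34.4 CPM at day 2, 27.4 to 42.7 CPM at day 3 and 59.3 to 95.6 CPM at day 7, and their part in the level of Tnfrsf1b was not tested.

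Tnfrsf1b rose 6.37-fold at day 1 (log2 2.67 ± 0.70, adjusted p = 0.0188), 10.01-fold at day 3 (log2 3.32 ± 0.72, adjusted p = 0.00824) and 7.65-fold at day 7 (log2 2.93 ± 0.71, adjusted p = 0.0151). Untreated replicate 1 held the highest untreated level, and without it these changes were 3.66, 4.30 and 3.92 on the log2 scale. The calls at days 1 and 7 were lost without untreated replicate 2 or 3. Day 2 (log2 1.40 ± 0.69, adjusted p = 0.200) and day 14 (log2 2.36 ± 0.70, adjusted p = 0.0958) were not called. The step from day 2 to day 3 was 1.92 ± 0.67 on the log2 scale with no overlap, but its adjusted p was 0.170.

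Tnfrsf12a encodes Fn14, the receptor for the TNF relative TWEAK, which signals to the non-canonical arm and is known to be induced in injured epithelium. Its levels were 2.17, 1.93 and 4.26 CPM in untreated kidney, 15.5, 21.4 and 19.6 CPM at day 1 and 13.4, 13.5 and 10.9 CPM at day 2. Days 1 and 2 lay wholly above untreated kidney, with each library at 10.9 CPM or more. The gene rose 6.80-fold at day 1 (log2 2.77 ± 0.58, adjusted p = 0.00386) and 4.56-fold at day 2 (log2 2.19 ± 0.57, adjusted p = 0.0150).

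At day 3 Tnfrsf12a stood at 4.94, 24.1 and 7.24 CPM (log2 2.13 ± 0.56, adjusted p = 0.0268), and without day 3 replicate 2 the change was 1.14 and not called (adjusted p = 0.232). At day 7 it was at 8.19, 2.17 and 3.37 CPM, overlapping with untreated kidney (log2 0.73 ± 0.55, adjusted p = 0.492). At day 14 it was at 0.781, 1.01 and 1.47 CPM, below all 3 untreated libraries, the only one of the 10 genes whose day 14 libraries lay wholly below. That difference was not called (log2 -1.34 ± 0.57, adjusted p = 0.257). From day 1 to day 14 Tnfrsf12a fell by 4.11 on the log2 scale (adjusted p = 0.000461), the largest difference between any 2 treated days among the calls for these genes. From day 2 to day 14 it fell by 3.53 (adjusted p = 0.00152), and from day 3 to day 14 by 3.47 (adjusted p = 0.0126) or, without day 3 replicate 2, by 2.49 (adjusted p = 0.0600).

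Ratios of receptors within a library do not depend on the scaling of libraries. Per kilobase of exon, Tnfrsf1b reads were 0.149, 0.0881 and 0.0237 times Tnfrsf1a reads in the untreated libraries, and 0.165, 0.187 and 0.200 times at day 1. They were 0.1201, 0.0526 and 0.0442 times at day 2, and 0.405, 0.841 and 0.588 times at day 7. The day 7 libraries thus lay above all untreated, day 1 and day 2 libraries, with a mean ratio of 0.611 ± 0.219 (SD, n = 3) against 0.0869 ± 0.0626 in untreated kidney. The pair was set side by side with both courses known, so the ratio is a description. An exact permutation test of 3 against 3 libraries cannot give a p under 0.1, so it cannot decide whether the ratio changed. Day 3 ranged from 0.128 to 0.730, and day 14 from 0.167 to 0.335.

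**Figure D3:**
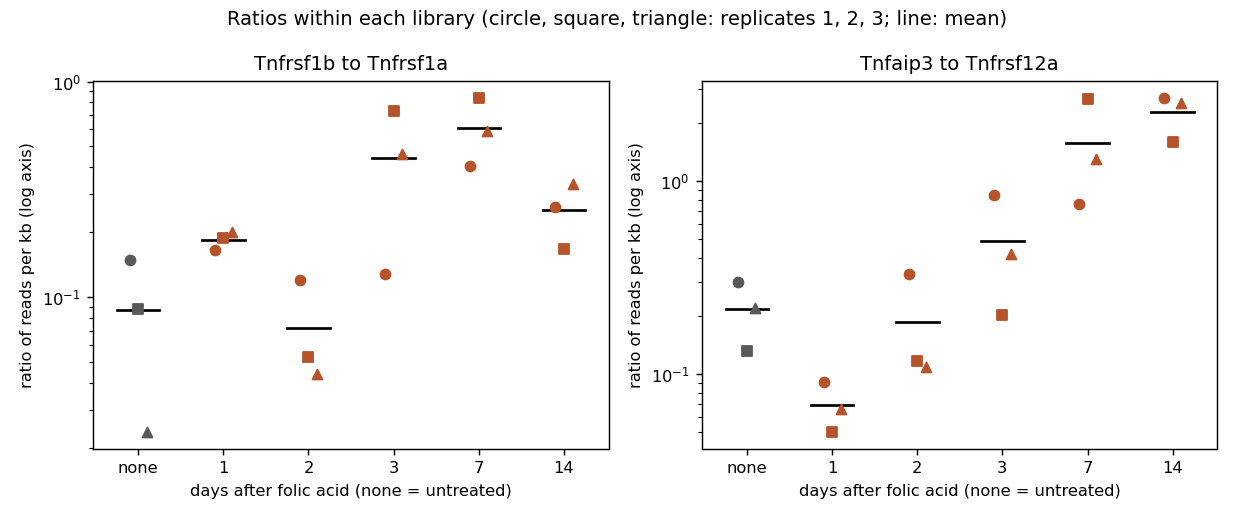
Ratio of reads per kilobase of exon (log axis) of Tnfrsf1b to Tnfrsf1a and of Tnfaip3 to Tnfrsf12a in each library of untreated kidney and days 1, 2, 3, 7 and 14; circles, squares and triangles are replicates 1, 2 and 3, and lines are means of 3. The Tnfaip3 to Tnfrsf12a ratio has its lowest mean at day 1 (0.0691) and its highest at day 14 (2.26).

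Of the target genes, 4 encode proteins that act back on the pathway and 2 encode NF-kappaB subunits. RefSeq promoter windows, from 250 bases before to 50 bases after a transcription start, were listed for 8 of the 10 genes, Nfkbiz and Relb having no entry. The kappaB consensus, a 10-base motif searched on both strands, occurred in the windows of 3 of these 8 genes, Tnfaip3, Nfkbia and Nfkb2, and in those of 9.55% of 27025 genes in the table (8.46% of 32851 windows). The windows of Tnf, Tnfrsf1a, Tnfrsf1b, Tnfrsf12a and Birc3 held no such letters. The 130 bases before the start are printed for the 3 genes because they let the matches be seen beside the values that follow. They are written 5′ to 3′ on the strand of the gene, in build GRCm38.p6, and capitals mark bases inside a match on either strand. A match is a description of letters and not a measured binding site.
Tnfaip3, chr10:19015411-19015540, minus strand: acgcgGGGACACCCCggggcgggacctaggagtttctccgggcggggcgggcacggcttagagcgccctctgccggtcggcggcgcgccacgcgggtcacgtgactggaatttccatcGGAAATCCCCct
Nfkbia, chr12:55492648-55492777, minus strand: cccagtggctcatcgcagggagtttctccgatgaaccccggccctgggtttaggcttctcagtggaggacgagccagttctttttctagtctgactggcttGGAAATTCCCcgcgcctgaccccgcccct
Nfkb2, chr19:46304607-46304736, plus strand: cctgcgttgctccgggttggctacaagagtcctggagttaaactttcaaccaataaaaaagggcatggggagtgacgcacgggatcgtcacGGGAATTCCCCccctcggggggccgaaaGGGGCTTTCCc

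In the Tnfaip3 stretch the matches lie 125 to 116 and 12 to 3 bases before the start, and the first of them is a match on both strands. In Nfkbia the match lies 29 to 20 bases before the start. In Nfkb2, 2 overlapping matches span 39 to 29 bases before the start and another lies 11 to 2 bases before it. These positions are for the start whose window is printed. Of the 2 other Nfkb2 windows in the table, 1 held 2 matches and 1 held 1, and the other Tnfaip3 window held 0. The values of the 3 genes with these letters are given below. Their time courses were not tested against each other, nor was the part of the motif in them. Of the 22 other NF-kappaB target genes with a window in the same table, 11 held the motif, as did 4 of 6 further NF-kappaB subunit and IkappaB genes and 0 of 6 genes of the death arm of TNF signalling. So did 7 of 23 genes for receptor adaptors and kinases, 3 of 20 further receptor genes and 1 of 12 ligand genes of the TNF superfamily. These stand beside the 9.55% of all genes in the table.

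Nfkbia encodes IkappaB-alpha, the inhibitor that holds NF-kappaB in the cytoplasm. Its levels were 2.01, 19.2 and 3.01 CPM in untreated kidney, 24.5, 4.59 and 10.4 CPM at day 1 and 6.64, 5.07 and 4.73 CPM at day 2. They were 6.90, 32.5 and 4.01 CPM at day 3, 7.33, 9.48 and 8.36 CPM at day 7 and 3.56, 4.83 and 8.56 CPM at day 14. Single libraries stood far above the others of their group in untreated kidney and at days 1 and 3, and every treated group overlapped with the untreated libraries. Fitted changes ran from -0.57 at day 2 (adjusted p = 0.695) to 0.83 at day 3 (adjusted p = 0.597), with a standard error of 0.78 to 0.79. Without untreated replicate 2 they were 2.39 at day 1, 2.51 at day 3 and 1.74 at day 7, and still not called. Without day 3 replicate 2 the day 3 change was -0.58.

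Nfkbiz encodes IkappaB-zeta, a nuclear member of the IkappaB family that is needed for a subset of inflammatory target genes. It was at 2.56, 3.54 and 1.63 CPM in untreated kidney, 30.5, 42.1 and 22.9 CPM at day 1 and 28.5, 23.7 and 33.3 CPM at day 2. It remained at 32.0, 36.1 and 31.6 CPM at day 3 and 31.6, 24.7 and 19.0 CPM at day 7, and was at 11.6, 7.62 and 22.4 CPM at day 14. All 15 treated libraries lay above all 3 untreated ones.

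Nfkbiz rose 12.2-fold at day 1 (log2 3.61 ± 0.41, adjusted p = 1.60e-05), 10.9-fold at day 2 (log2 3.45 ± 0.41, adjusted p = 2.55e-05), 12.7-fold at day 3 (log2 3.67 ± 0.41, adjusted p = 3.36e-05) and 9.60-fold at day 7 (log2 3.26 ± 0.41, adjusted p = 0.000126). These 4 calls held under every alternative tried. At day 14 it was 5.30-fold above untreated kidney (log2 2.41 ± 0.39, adjusted p = 0.00316). That call was lost when the untreated and day 14 libraries were fitted alone (log2 2.42, adjusted p = 0.0805), and without day 14 replicate 3 the change was 1.88.

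Tnfaip3 encodes A20, which edits ubiquitin chains and switches the TNF signal off. It was at 2.45, 0.951 and 3.51 CPM in untreated kidney and at 5.29, 4.004 and 4.83 CPM at day 1, a group that lay wholly above untreated kidney but was not called (log2 1.06 ± 0.50, adjusted p = 0.209). Levels were 16.7, 5.92 and 4.42 CPM at day 2, 15.5, 18.2 and 11.4 CPM at day 3 and 23.1, 21.6 and 16.4 CPM at day 7. All 6 libraries of days 3 and 7 stood at 11.4 CPM or more, while 5 of the 6 libraries of days 1 and 2 stood at 5.92 CPM or less.

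Tnfaip3 rose 6.64-fold at day 3 (log2 2.73 ± 0.53, adjusted p = 0.00355) and 8.997-fold at day 7 (log2 3.17 ± 0.53, adjusted p = 0.00133). The call at day 2 (log2 2.01 ± 0.52, adjusted p = 0.0142) was lost without day 2 replicate 1 (log2 1.17, adjusted p = 0.129). Between days 1 and 7 the gene rose by 2.11 on the log2 scale (adjusted p = 0.0208), the 1 gene of the 10 that was called higher between treated days. At day 14 its libraries were at 7.85, 6.001 and 13.8 CPM, above untreated kidney, with an adjusted p of 0.0532 (log2 2.03 ± 0.51).

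Tnfaip3 and Tnfrsf12a were set against each other with their courses already known, so their ratio is a description. Tnfaip3 reads per kilobase were 0.0911, 0.0502 and 0.0661 times those of Tnfrsf12a at day 1. They were 0.755, 2.66 and 1.30 times at day 7 and 2.69, 1.58 and 2.52 times at day 14. The untreated libraries lay between at 0.301, 0.132 and 0.220. Day 1 lay below and days 7 and 14 above all untreated libraries.

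Birc3 encodes cIAP2, a ubiquitin ligase of the receptor complex that favours survival over cell death. It was at 4.51, 3.23 and 4.76 CPM in untreated kidney, 42.0, 18.7 and 18.7 CPM at day 1 and 18.8, 27.7 and 25.2 CPM at day 2. It was at 25.2, 44.4 and 18.4 CPM at day 3, 30.9, 33.6 and 79.0 CPM at day 7 and 14.4, 8.03 and 17.9 CPM at day 14. Its untreated libraries lay below each of the 15 treated libraries.

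Birc3 rose 6.37-fold at day 1 (log2 2.67 ± 0.46, adjusted p = 0.000903), 5.74-fold at day 2 (log2 2.52 ± 0.46, adjusted p = 0.00140), 7.07-fold at day 3 (log2 2.82 ± 0.47, adjusted p = 0.00106) and 11.5-fold at day 7 (log2 3.53 ± 0.48, adjusted p = 0.000267). These calls held under every alternative tried. At day 14 the change was 1.69 ± 0.45 (adjusted p = 0.0633). With library totals alone, without the low-count filter, with DESeq2 or without day 14 replicate 2 it passed the threshold.

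Relb and Nfkb2 encode the partners of the non-canonical dimer, RelB and the p100 precursor of p52. Nfkb2 was at 2.39, 0.737 and 1.82 CPM in untreated kidney, 11.9, 11.2 and 9.92 CPM at day 1 and 4.46, 5.58 and 3.61 CPM at day 2. It was at 5.97, 10.8 and 7.16 CPM at day 3, 6.51, 6.20 and 3.12 CPM at day 7 and 1.78, 1.05 and 5.62 CPM at day 14. Days 1 to 7 lay wholly above untreated kidney and day 14 overlapped with it.

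Nfkb2 rose 6.77-fold at day 1 (log2 2.76 ± 0.57, adjusted p = 0.00374) and 4.91-fold at day 3 (log2 2.30 ± 0.56, adjusted p = 0.0177). The call at day 3 was lost without untreated replicate 2 or 3, or without day 3 replicate 2. Day 2 (log2 1.47 ± 0.56, adjusted p = 0.0907), day 7 (log2 1.70 ± 0.56, adjusted p = 0.0688) and day 14 (log2 0.80 ± 0.55, adjusted p = 0.530) were not called. From day 1 to day 14 Nfkb2 fell by 1.96 on the log2 scale (adjusted p = 0.0327), or by 2.96 without day 14 replicate 3. On the opposite strand its exons overlap those of Psd by 299 bases and those of AC114539.1, a gene not counted in these tables, by 531 bases. Strand use in the counting is not given in the sources used here, so any reads of AC114539.1 there cannot be told apart from those of Nfkb2. Psd is itself counted, and each library has a tally of ambiguous reads (1.01 to 1.47% of all). How reads in the overlap with Psd were assigned is not given.

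Relb was at 1.79, 2.23 and 1.06 CPM in untreated kidney, 4.72, 5.56 and 4.06 CPM at day 1 and 5.85, 5.58 and 4.15 CPM at day 2. It was at 3.68, 9.51 and 5.20 CPM at day 3, 7.60, 6.81 and 3.19 CPM at day 7 and 7.24, 1.99 and 6.32 CPM at day 14. Days 1 to 7 lay above untreated kidney in every library, and 1 day 14 library was inside the untreated range. The calls were close to the threshold, at day 2 (log2 1.59 ± 0.51, adjusted p = 0.0471), day 3 (log2 1.83 ± 0.51, adjusted p = 0.0350) and day 7 (log2 1.77 ± 0.51, adjusted p = 0.0408). They were lost in 18, 7 and 12 of 26 alternatives, while day 1 (log2 1.48 ± 0.51, adjusted p = 0.0725) was called in 2 of 26. The ratio of Nfkb2 to Relb reads per kilobase was 1.97 ± 0.228 (SD, n = 3) at day 1 and between 0.647 and 1.37 in each library of days 2, 3 and 7. It was 1.13, 0.280 and 1.45 in the untreated libraries and 0.208, 0.450 and 0.755 at day 14. This ratio is a description.

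Per kilobase of exon, the mean levels of the 10 genes in untreated kidney ran from 0.0448 ± 0.0399 CPM (SD, n = 3) for Tnf to 5.01 ± 5.99 CPM for Nfkbia, with Tnfrsf1a at 2.41 ± 0.732 CPM and Tnfrsf12a at 1.44 ± 0.663 CPM next. No 2 neighbours in that order differed by more than their summed SDs, in 0 of 9 pairs. At day 1 the order began with Tnfrsf12a (9.73 ± 1.54 CPM), Nfkbia (8.19 ± 6.37 CPM) and Tnfrsf1a (8.07 ± 0.182 CPM). Tnfaip3, at 0.652 ± 0.0903 CPM, lay below Relb and above Tnf by more than their summed SDs. At day 7 Birc3 came first (9.55 ± 5.39 CPM) and Tnfrsf12a (2.37 ± 1.65 CPM) stood in the sixth place. At day 14 Tnfrsf12a was next to last, at 0.563 ± 0.181 CPM per kilobase, followed by Tnf. Of 9 neighbouring pairs, 3 were apart by more than their summed SDs at days 1 and 2, 1 at days 3 and 7 (at day 7 Nfkbiz over Tnfrsf1a) and 0 at day 14, so the places of Birc3 and Tnfrsf12a at days 7 and 14 were not separated from those of their neighbours.

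Between consecutive times none of the 10 genes was called. For day 2 against day 1 the count was 0 beside 0.0594% of all genes, with 1 gene at an unadjusted p under 0.05 and 0 by DESeq2. For day 3 against day 2 it was 0 beside 0.25%, with 2 unadjusted and 0 by DESeq2, and for day 7 against day 3 it was 0 beside 0.0178%, with 2 unadjusted and 0 by DESeq2. For day 14 against day 7 it was 0 beside 0.0178%, with 4 unadjusted (Tnfaip3, Tnfrsf12a, Birc3 and Nfkbiz, with fitted changes from -2.07 to -0.86), and DESeq2 called 2 of these, Tnfrsf12a and Birc3.

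Pairs of treated days that are not consecutive were compared after the data had been seen. Day 7 against day 1 gave 1 gene higher (Tnfaip3) and 2 lower (Tnfrsf1a and Tnfrsf12a), beside 2.66% of all genes higher and 1.85% lower. Day 14 against day 1 gave 2 lower (Tnfrsf12a and Nfkb2) beside 3.43%, and day 14 against day 2 gave 1 lower (Tnfrsf12a) beside 4.74%. Day 7 against day 2 gave 1 lower (Tnfrsf1a) beside 2.44%, and day 14 against day 3 gave 1 lower (Tnfrsf12a) beside 0.446%. Day 3 against day 1 gave 0 of 10 beside 1.15% in either direction, with 1 gene at an unadjusted p under 0.05 and 1 called by DESeq2.

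At day 14 the mean of Relb stood 78.6% of the way from its untreated level to its highest group mean. The same share was 45.6% for Tnfrsf1b, 38.3% for Tnfaip3, 36.8% for Nfkbiz, 32.4% for Tnfrsf1a, 30.7% for Tnf, 21.2% for Birc3 and 12.5% for Nfkb2. It was -10.6% for Tnfrsf12a and -37.8% for Nfkbia, whose day 14 means lay below the untreated ones. The Nfkbia share rests on untreated replicate 2 (19.2 CPM, against 2.01 and 3.01) and day 3 replicate 2 (32.5 CPM, against 6.90 and 4.01). The other untreated Nfkbia libraries lay below all 3 day 14 ones (3.56, 4.83 and 8.56 CPM). Day 14 replicate 3 held the highest value of its group for 8 of the 10 genes and day 14 replicate 2 the lowest for 8, so the shares depend on single libraries. Relb (7.24, 1.99 and 6.32 CPM) and Tnf (0.867, 0 and 0.204 CPM) were highest in day 14 replicate 1. The highest group means of Tnfrsf1b, Nfkbia, Nfkbiz and Relb fell at day 3 and include day 3 replicate 2. Day 14 replicate 3 also had the highest sums of tubular injury markers (2887 CPM, against 974 and 724), macrophage markers (409 CPM, against 233 and 204) and fibroblast markers (327 CPM, against 206 and 148), and the lowest sum of proximal tubule markers (2164 CPM, against 4651 and 5669). Day 3 replicate 2 was in the same position at day 3, highest for 9 of the 10 genes and highest in fibroblast markers (303 CPM, against 119 and 122). The part of tissue composition in these differences was not tested.

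The rest of the pathway was read from 6 lists of genes. Their choice was made with earlier results for these samples known, so their counts are descriptions. Each count of genes that rose is to be read beside the 5.09, 7.19, 4.18, 3.87 and 1.24% of all genes tested that rose at days 1, 2, 3, 7 and 14. Each count of genes that fell is to be read beside the 5.56, 5.98, 3.43, 3.85 and 0.309% that fell at these days. Of 27 other NF-kappaB target genes tested, 17, 15, 16, 15 and 9 rose at days 1, 2, 3, 7 and 14, with median log2 fold changes of 2.90, 3.62, 4.42, 3.85 and 2.48, and 1 fell at each of days 1, 2, 3 and 7 (Sod2). Without day 14 replicate 3 the count at day 14 was 4, and without untreated replicate 2 that at day 1 was 10. Vcam1, which encodes the adhesion molecule VCAM-1 and, like Lcn2, also stands among the tubular injury markers, was at 1.47, 1.55 and 1.75 CPM in untreated kidney and at 106 to 312 CPM at day 3 (log2 6.96 ± 0.50, adjusted p = 2.62e-07). Ccl2, the monocyte chemoattractant gene, was at 0.0476 to 0.125 CPM in untreated kidney and at 15.1 to 25.5 CPM at day 7 (log2 7.75 ± 0.74, adjusted p = 6.57e-06). Ccl2 and Tnfaip3 both had their highest group mean at day 7.

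Among the 7 other NF-kappaB subunit and IkappaB genes, 3, 2, 3, 2 and 0 rose at days 1, 2, 3, 7 and 14. Bcl3, which encodes a nuclear IkappaB protein that works with p50 and p52, rose at days 1, 2, 3 and 7, by 2.98 ± 0.52 on the log2 scale at day 1 (adjusted p = 0.000903) and 3.13 ± 0.52 at day 3 (adjusted p = 0.00108). Nfkb1, the gene of p105 and p50, rose by 1.81 ± 0.42 at day 1 (adjusted p = 0.00809), 1.80 ± 0.42 at day 2 (adjusted p = 0.00803) and 1.93 ± 0.42 at day 3 (adjusted p = 0.00839). Rela, the gene of the main activating subunit, was called at day 1 (log2 2.11 ± 0.60, adjusted p = 0.0294) on libraries of 20.1, 82.2 and 17.0 CPM, and without replicate 2 it was not (log2 1.02, adjusted p = 0.306), nor in 4 other alternatives. Nfkbie, the gene of IkappaB-epsilon, rose by 2.82 ± 0.69 at day 3 (adjusted p = 0.0168), a call lost without day 3 replicate 2 or untreated replicate 1 or 2, and by 2.26 ± 0.67 at day 7 (adjusted p = 0.0468), a call lost in 14 of 26 alternatives. Without day 7 replicate 1 the day 7 count was 0.

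Of 6 ligand genes of the TNF superfamily that passed the low-count filter (of 17 listed), none rose at any day and 1 fell. Tnfsf10, which encodes the death ligand TRAIL, was at 37.5, 37.8 and 43.4 CPM in untreated kidney and fell by 2.25 ± 0.44 on the log2 scale at day 1 (8.66, 5.89 and 10.3 CPM, adjusted p = 0.00241) and by 2.43 ± 0.45 at day 2 (5.58, 14.7 and 2.69 CPM, adjusted p = 0.00159). By day 14 it was at 35.3, 32.4 and 34.4 CPM. Of 19 further receptor genes of the superfamily, 3, 2, 0, 1 and 0 rose at days 1, 2, 3, 7 and 14. Tnfrsf23, which encodes a decoy receptor for TRAIL in the mouse, was at 0.272, 0.404 and 0.501 CPM in untreated kidney and rose to 5.12, 9.43 and 7.70 CPM at day 1 (log2 4.23 ± 0.81, adjusted p = 0.00197). Ltbr, the lymphotoxin beta receptor gene, rose by 1.56 ± 0.41 at day 1 (adjusted p = 0.0198) and 1.53 ± 0.41 at day 2 (adjusted p = 0.0192). Both Ltbr calls were lost without any 1 of the untreated libraries, that at day 1 also without day 1 replicate 2 and that at day 2 also without day 2 replicate 3. The other calls were Tnfrsf23 at day 2, Tnfrsf9 at day 1 and Ngfr at day 7. Without untreated replicate 1 the count at day 2 was 0, without day 1 replicate 2 that at day 1 was 1, and without day 7 replicate 2 that at day 7 was 0.

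Of 27 genes for receptor adaptors and kinases up to the IkappaB kinase complex, 1, 4, 2, 2 and 1 rose at days 1, 2, 3, 7 and 14, and 1 fell at day 7 (Chuk). The genes called were Tnip2 at days 1 and 2, Map3k14, which encodes NIK, at days 2, 3 and 7, Tab3 and Tnip1 at day 2, Birc2 at days 3 and 7 and Traf1 at day 14. Birc2, which encodes cIAP1 and is the close relative of Birc3, rose by 1.80 ± 0.39 at day 3 (adjusted p = 0.00826) and 2.11 ± 0.39 at day 7 (adjusted p = 0.00269), and had its highest level in the same library as Birc3, day 7 replicate 3 (52.4 CPM). The count was 0 at day 1 without day 1 replicate 2, 0 at day 2 without untreated replicate 1, 1 at day 3 without day 3 replicate 1, 1 at day 7 without day 7 replicate 3 and 0 at day 14 without day 14 replicate 3. Tab3 and Tnip1 were at 87.7 and 79.6 CPM in day 2 replicate 2 and at 5.96 to 12.3 CPM in the other 2 libraries of that day, and without replicate 2 their day 2 changes were 0.36 (adjusted p = 0.591) and 0.80 (adjusted p = 0.303). Traf1 was at 33.5 CPM in day 14 replicate 3 and at 1.52 and 0.527 CPM in the others, and its day 14 change of 4.98 was 1.44 (adjusted p = 0.540) without it.

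Of 7 genes of the death arm of TNF signalling, 2, 1, 1, 1 and 0 rose at days 1, 2, 3, 7 and 14, and 1 fell at day 7 (Bid). Ripk3 was called at days 1, 2, 3 and 7 and Mlkl at day 1. The count was 0 at day 1 without day 1 replicate 1, 0 at day 3 without untreated replicate 2 and 0 at day 7 without day 7 replicate 1. Ripk3, the kinase gene of necroptosis, had no read in the 3 untreated libraries and 30, 138, 102, 40 and 9 reads at days 1, 2, 3, 7 and 14. Pooled over the 3 libraries of a group and set against a floor of 3 counts over the untreated group, it was at least 43.4-fold higher at day 2 and at least 27.5-fold higher at day 3. These bounds cover counting error alone and not the spread between libraries. The day 2 libraries held 75, 1 and 62 reads (1.53, 0.169 and 2.38 CPM) and the day 3 libraries 26, 49 and 27 reads.

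**Figure D4:**
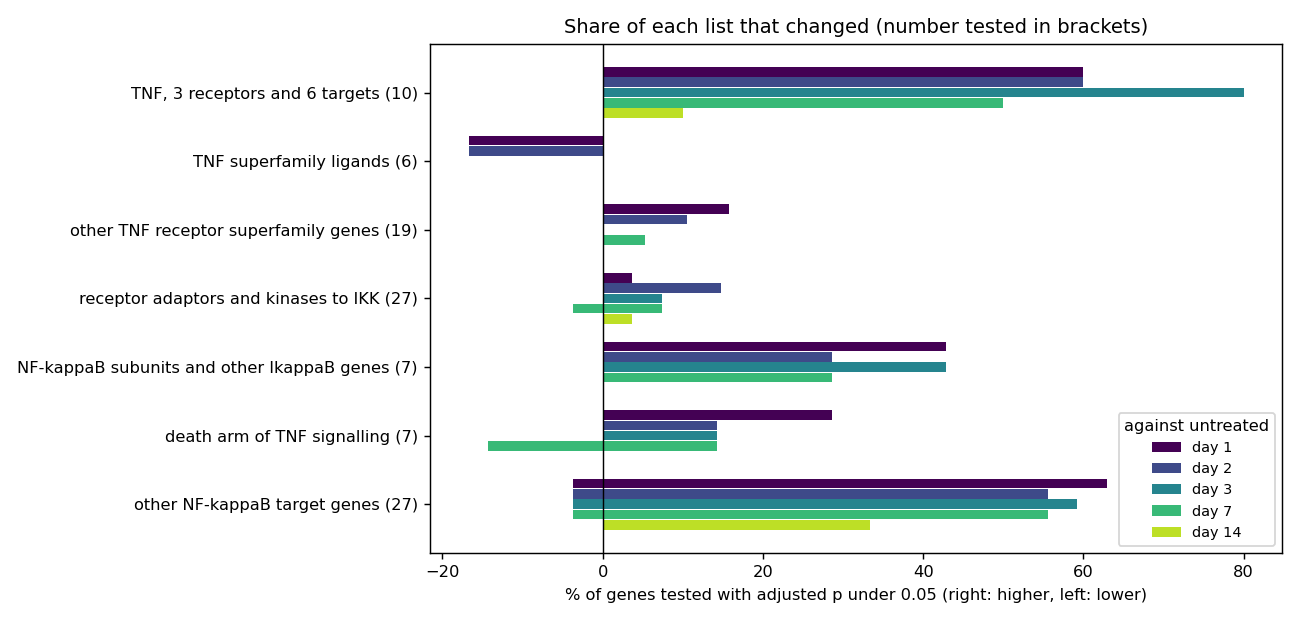
Share of the genes tested in each list (y axis, number tested in brackets) that were called higher (bars to the right) or lower (bars to the left) at days 1, 2, 3, 7 and 14 against untreated kidney (x axis, percent). The top set is the 10 genes described here; of the lists, the 27 other NF-kappaB target genes have the longest bars at every day, and the ligands have no bar to the right.

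Over the 18 libraries, which share the 6 groups and differ in depth, the log2 levels of the 10 genes were related to different extents. The highest Pearson correlations were 0.833 for Nfkbiz with Relb, 0.832 for Nfkbiz with Birc3 and 0.786 for Nfkbiz with Nfkb2, and the lowest was -0.11 for Tnf with Tnfrsf1a. Among 7940 genes with a mean of at least 5 CPM, the genes most like Nfkbiz were Ucp2 (r = 0.968), Cxcl1 (r = 0.968) and Serpina10 (r = 0.966). Those most like Tnfrsf12a were Tgm2 and Fga (r = 0.902 each) and Ywhah (r = 0.894), and those most like Tnfrsf1a were Tsc22d1 (r = 0.910), Fbp2 (r = 0.888) and Jund (r = 0.887). For Tnfaip3 they were Ccl9 (r = 0.885), Flvcr1 (r = 0.883) and Vcam1 (r = 0.883), and for Birc3 they were C3 (r = 0.894), Csf1 (r = 0.887) and Cd44 (r = 0.886). For Nfkb2 they were Ezh2 (r = 0.904), Adamts1 (r = 0.899) and Jpt1 (r = 0.880), and for Tnfrsf1b they were Col1a1 (r = 0.834), Carmil1 (r = 0.833) and Cep170 (r = 0.826).

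With library totals alone in place of TMM scaling, the median of all genes against untreated moved up by 0.14, 0.24, 0.58, 0.68 and 0.32 on the log2 scale at days 1, 2, 3, 7 and 14. Of all genes called, 47.8, 54.6, 54.9, 50.2 and 80.0% were higher with TMM scaling and 56.8, 69.0, 91.2, 93.2 and 95.9% with totals alone. The counts of the 10 genes called were then 6, 6, 8, 7 and 3, and none was called lower.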

How the data were processed

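Total RNA of frozen mouse kidney (TRIzol) was made into libraries from 10 ng with NuGEN SPIA amplification, per the labels' protocols. Cutadapt, TopHat2 2.07, HTSeq, DESeq and the build NCBIM37 are named, with no role or order, per the submitters' processing notes, and whether counting used strand is not given in the sources used here. The authors deposited raw counts per Ensembl gene for each library. The authors also deposited a normalized signal per gene, which equals the counts divided by 1 factor per library (0.218 to 1.97) and was not tested.

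From the counts, edgeR 4.0.16 (R 4.3.3) fitted 1 quasi-likelihood model to 18 libraries with the 6 groups as its term, TMM scaling (factors 0.682 to 1.36) and filterByExpr, and p-values were Benjamini-Hochberg adjusted over 16824 genes. The 5 tallies of unassigned reads stayed out; reads without a feature were 13.8 to 23.6% of all. Symbols matched 32919 identifiers and were lacking for 5072. Exon lengths and overlaps came from GENCODE M21, and promoter windows from RefSeq GRCm38.p6. Both belong to a later build than the NCBIM37 that the submitters name. The exons behind the counts may therefore differ from those whose lengths were used. Alternatives were DESeq2 1.42.0 or its size factors, limma-voom (limma 3.58.1), library totals alone, no low-count filter, no mitochondrial genes, only the groups compared, a replicate-number block and each library left out. Same-numbered libraries did not deviate together (r -0.0543 to 0.0416 over 45 pairs).

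The 10 genes and all lists were chosen with earlier results of these data known. Named list genes were up to 4 per list with the smallest F test adjusted p, beside genes behind counts of 5 or fewer; likeness was computed on log2 CPM (prior count 2) and named 3 genes for each of the 10 genes that differed across the 6 groups. One gene of these lists is not reported here.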

Additional observations from a re-analysis of the deposited data

Results flagged for a closer look

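For 8 gene and day pairs the change since untreated kidney differed between 2 treated days, by a direct test of one day against the other (edgeR, adjusted over all genes tested). These pairs were compared after the data had been seen. Tnfaip3 was higher at day 7 than at day 1 by 2.11 on the log2 scale (adjusted p = 0.0208), and the call was lost in 5 of 26 alternatives, each of which left out 1 library of those days. Tnfrsf12a at day 7 differed from day 1 by -2.04 (adjusted p = 0.0413, lost in 9 of 26), and Tnfrsf1a by -1.40 (adjusted p = 0.0383, lost in 7 of 26). Without day 7 replicate 1 the Tnfrsf12a difference was -2.77.

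Tnfrsf12a at day 14 differed from day 1 by -4.11 (adjusted p = 0.000461), from day 2 by -3.53 (adjusted p = 0.00152) and from day 3 by -3.47 (adjusted p = 0.0126). The first 2 calls held in all 26 alternatives and the last was lost in 4. Nfkb2 at day 14 differed from day 1 by -1.96 (adjusted p = 0.0327, lost in 8 of 26), and Tnfrsf1a at day 7 from day 2 by -1.41 (adjusted p = 0.0376, lost in 9 of 26).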

How the results depend on the processing

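Of 26 calls against untreated kidney, 15 held under all alternatives, 11 were lost under at least 1 and 0 of the 10 genes' calls reversed; of 24 comparisons not called, 9 were called under at least 1. With 1 library left out, the number of the 10 genes called ranged from 5 to 7 at day 1, 3 to 6 at day 2, 4 to 8 at day 3, 3 to 6 at day 7, 1 to 4 at day 14 and 6 to 7 across the 6 groups, and from 0 to 3 for day 7 against day 1, 1 to 4 for day 14 against day 1, 0 to 1 for day 7 against day 2, 1 to 3 for day 14 against day 2 and 0 to 3 for day 14 against day 3. With library totals alone the counts were 3 at day 14, 1 for day 3 against day 1, 1 for day 7 against day 1, 1 for day 14 against day 1 and 0 for day 7 against day 2. DESeq2 gave 5 at day 14, 2 for day 14 against day 7, 1 for day 3 against day 1, and 2 each for day 7 against day 2, day 14 against day 2 and day 14 against day 3. Fits of only the groups compared gave 0 at day 14, 1 for day 14 against day 1, 0 for day 7 against day 2 and 0 for day 14 against day 3, and without the low-count filter 3 were called at day 14. With the replicate number as a block, 6, 5, 7, 4 and 1 genes were called at days 1, 2, 3, 7 and 14, 6 differed across the groups and 1 differed for day 14 against day 1. Over all genes the calls ranged from 1164 to 2581 at day 1, 1186 to 3001 at day 2, 614 to 2238 at day 3, 607 to 2565 at day 7 and 71 to 922 at day 14. The cause of these shifts was not tested. Some of the fits used fewer libraries. Few reads stand behind Tnf, Ripk3 and the untreated level of Tnfrsf1b.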
